A study of Mus musculus with 22 samples.

Results

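Amino acid transporter genes were taken by name from the counts of whole testes RNA. The members were all rows of the table whose gene symbol starts with Slc1a, Slc3a, Slc6a, Slc7a, Slc36a, Slc38a or Slc43a followed by a number, and they came to 62 of 17931 gene symbols. By family they were 19 Slc6a, 16 Slc7a, 11 Slc38a, 7 Slc1a, 4 Slc36a, 3 Slc43a and 2 Slc3a genes. One of the Slc7a rows, *Slc7a6os*, is the opposite-strand neighbour of *Slc7a6* and encodes no transporter, and several Slc6a members carry neurotransmitters, osmolytes or creatine and not amino acids.

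Testes of 7-month-old males were compared, 3 WT and 3 MLX KO, with 1 library of each genotype in each of 3 numbered pairs of littermates. MLX is the obligate partner of MondoA and ChREBP, transcription factors that respond to nutrients. The KO mice lack MLX in the whole body from a deletion of the exons for the DNA-binding and dimerization domain, which was made in 129S4 AK7 embryonic stem cells and passed through a Meox2-Cre cross. The WT males were breeders known to be fertile, the mice were otherwise untreated, and the sources do not say which of the study's separately derived lines supplied these testes. The deletion leaves other exons of *Mlx* in place, and the count for *Mlx* was not used here to check the genotype. All directions are therefore of libraries labelled KO against libraries labelled WT. The comparison asks which of the carriers changed in mRNA level in testes without MLX.

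Amino acids cross the plasma membrane on carriers of several solute carrier (SLC) families. Carriers of the SLC1, SLC6, SLC36 and SLC38 families mostly draw on ion gradients, SLC43 proteins let neutral amino acids pass down their gradient, and many SLC7 proteins are light chains that reach the membrane only when bound to an SLC3 heavy chain. In the seminiferous tubule, germ cells beyond the blood-testis barrier depend on Sertoli cells for nutrients, and amino acid uptake feeds protein synthesis, glutathione and mTORC1 signalling. The mRNA of many of these carriers is raised by the transcription factor ATF4 when amino acids are scarce.

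The libraries held between 16674678 and 19742726 counts. Values are given as CPM (read counts scaled to a common library size with TMM factors), and a member was called changed at an adjusted p under 0.05 by edgeR's quasi-likelihood test, with adjustment over all 14640 genes tested. In whole testes, fewer cells of a type and less RNA per cell cannot be told apart. The cell types of a testis were seen through marker lists, and most of these moved with genotype. All 12 elongating spermatid markers were lower in MLX KO, with a summed level of 27475 to 28534 CPM in WT and 16870 to 20480 in KO libraries, and 10 of 10 round spermatid and 9 of 12 spermatocyte markers were also lower. All 11 Sertoli cell markers were higher (summed level 1126 to 1181 CPM in WT, 1678 to 2028 in KO), as were 9 of 9 Leydig cell markers (825 to 847 CPM in WT, 1787 to 2303 in KO) and 8 of 9 macrophage markers, whose summed level overlapped (449 to 468 CPM in WT, 449 to 492 in KO) and of which *Aif1* was lower. Most of the macrophage sum was *Aif1*, with a mean of 377 CPM in WT and 299 CPM in KO. Of the peritubular myoid cell markers 5 of 7 were higher and 1 lower, of the endothelial cell markers 2 of 7 were higher, and of the spermatogonial markers 2 of 10 were higher and 1 lower. The shares of all genes tested were 24.8% higher and 20.6% lower, and the endothelial and spermatogonial shares called higher lay near the first of these. No marker stood at 0 in every library. The part of these shifts in the differences between transporters was not tested.

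Per kb of exon, expression of the transporters was concentrated in few genes. The exon length joined the exons of all annotated transcripts of a gene, so that genes with long annotated transcripts rank lower. *Slc38a9*, for example, had 77 CPM in WT but, over 16704 bases, 4.61 CPM per kb. On this scale the highest level in WT was that of *Slc7a5* (LAT1, the light chain that exchanges large neutral amino acids) at 48.7 ± 2.39 CPM per kb (SD, n = 3). *Slc3a2* (4F2hc, also known as CD98, the heavy chain of LAT1) followed at 35.0 ± 0.707 CPM per kb, then *Slc36a3*, a testis-expressed member of the proton-coupled family, at 21.5 ± 1.92. *Slc38a10* at 16.6 ± 0.382, *Slc7a6* (y+LAT2, an exchanger of cationic for neutral amino acids) at 14.9 ± 0.319 and the taurine carrier *Slc6a6* at 14.7 ± 0.338 CPM per kb came next, and *Slc7a6* and *Slc6a6* did not differ beyond their spread. The 5 highest members made up 62.1% ± 1.06 of the summed CPM per kb of all members in WT and 61.8% ± 0.891 in MLX KO (SD, n = 3; exact permutation test, two-sided, p = 0.7, where 0.1 is the smallest p that 3 against 3 allow). These 5 were picked by their WT levels, which the p-value does not account for. At the other end, 19 members had too few counts to be tested, with at most 14 counts in any library, and 4 of them had at most 3 counts in every library.

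Of the 43 members tested, 19 were higher in MLX KO, 1 was lower and 23 were not called. Over all genes tested 24.8% were called higher and 20.6% lower. The median log2 fold change (LFC, MLX KO over WT) was 0.35 over the 43 tested members and 0.03 over all genes, and 28 of the 43 had an LFC above 0. WT and KO values did not overlap, with KO above WT, for 21 of the 43 tested members and for 30.3% of all genes tested, and with KO below WT for 3 of the 43 (*Slc36a3*, *Slc1a2* and *Slc38a9*) and 25.9% of all genes. The 19 called higher were among the 21, which the call nearly fixes, since 97.0% of all genes called higher had groups that did not overlap. In 17 of the 19, KO1 had the lowest level of the KO libraries, and without KO1 all 20 calls were made again. Of the 19, 11 had at least 100 counts in every library. The rest were sparser, and *Slc43a1*, with fewer than 10 counts in each WT library, passed the filter on low counts through its KO libraries.

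**Figure D1:**
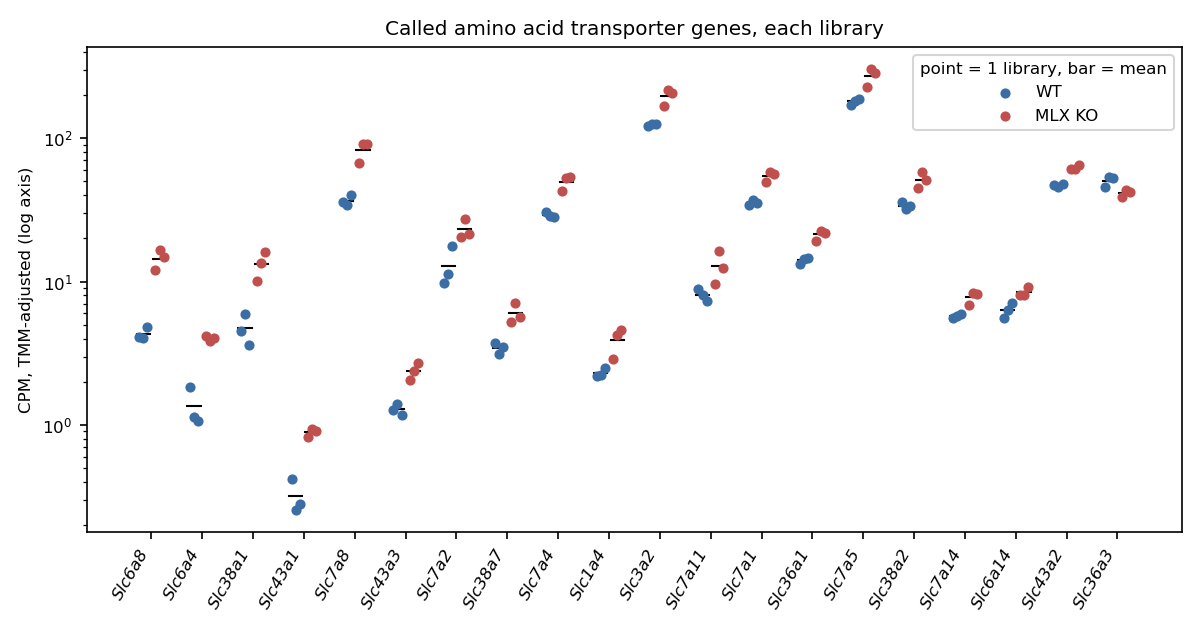
CPM (TMM-adjusted, log axis) of the 20 called members in each library, with 3 WT libraries in blue and 3 MLX KO libraries in red, bars at the means, and genes ordered by log2 fold change from Slc6a8 at 1.75 to Slc36a3 at -0.28. The WT and KO points of each gene do not overlap, and the called members span levels from under 1 CPM (Slc43a1) to over 100 CPM (Slc7a5 and Slc3a2).

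The heavy chain *Slc3a2* (chr19:8706882-8723369, coordinates of RefSeq on GRCm38.p6 here and throughout) brings its light chains to the plasma membrane. It had 121, 126 and 125 CPM in WT1, WT2 and WT3 and 169, 218 and 207 CPM in KO1, KO2 and KO3. All 3 KO libraries lay above all WT libraries, with a fold of 1.60 (LFC 0.68, SE 0.08, adjusted p = 9.37e-05). The other heavy chain, *Slc3a1* (rBAT, which pairs with the kidney-type light chain *Slc7a9*), had 0.791, 0.382 and 0.677 CPM in WT and 1.60, 1.05 and 0.476 CPM in KO. The groups of *Slc3a1* overlapped and it was not called (LFC 0.73, SE 0.44, adjusted p = 0.197). Without KO3 its LFC was 1.08 and it was called (adjusted p = 0.0476), and without KO1 its LFC was 0.28 (adjusted p = 0.644). *Prepl* on the opposite strand covers 26.5% of its exon length, where reads of both genes cannot be told apart without strand information.

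Among the light chains, 5 of 10 had enough counts and 3 of these rose, beside 24.8% of all genes called higher. *Slc7a5* (chr8:121881146-121907686) had 171, 183 and 188 CPM in WT and 229, 304 and 287 CPM in KO. Its fold of 1.51 (LFC 0.60, SE 0.09, adjusted p = 0.000387) lay near that of its heavy chain. *Slc7a8* (LAT2, another exchanger of neutral amino acids, chr14:54722215-54781886) rose from 35.9, 34.0 and 40.0 CPM in WT to 67.6, 90.8 and 91.6 CPM in KO (fold 2.27, LFC 1.18, SE 0.11, adjusted p = 2.09e-05). The cystine and glutamate exchanger *Slc7a11* (xCT), which supplies cysteine for glutathione, had 8.91, 8.01 and 7.33 CPM in WT and 9.65, 16.3 and 12.4 CPM in KO. KO1 stood just above WT1, and the increase was called (fold 1.58, LFC 0.66, SE 0.17, adjusted p = 0.00929). The y+LAT light chains were not called. *Slc7a6* had 66.6, 69.5 and 68.1 CPM in WT and 68.3, 66.3 and 73.2 in KO, overlapping values with an LFC of 0.03 (SE 0.05, adjusted p = 0.723), and *Slc7a7* had an LFC of 0.23 (adjusted p = 0.0998, or 0.0492 without WT1).

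Summed per kb of exon, the 6 light chains that pair with *Slc3a2* (*Slc7a5*, *Slc7a6*, *Slc7a7*, *Slc7a8*, *Slc7a10* and *Slc7a11*) came to 74.5 ± 2.69 CPM per kb in WT and 110 ± 13.7 in MLX KO (SD, n = 3; exact permutation test, two-sided, p = 0.1, the smallest possible). For each CPM per kb of *Slc3a2* there were 2.13 ± 0.0526 of light chain in WT and 1.97 ± 0.0251 in KO (exact p = 0.1), and the ratio was slightly lower in every KO library than in any WT library. Within the sum, *Slc7a8* took 9.97%, 9.12% and 10.4% in WT and 14.3%, 15.2% and 15.8% in KO, and *Slc7a6* took 20.3%, 20.4% and 19.3% in WT and 15.8%, 12.1% and 13.8% in KO. Neither pair of groups overlapped (exact p = 0.1 for both). *Slc7a5* was the main light chain in both genotypes, at 65.4% ± 1.01 in WT and 66.9% ± 1.60 in KO (exact p = 0.3). All these shares depend on the exon lengths used, such as 13922 bases for *Slc7a11* and 3315 for *Slc7a7*.

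**Figure D2:**
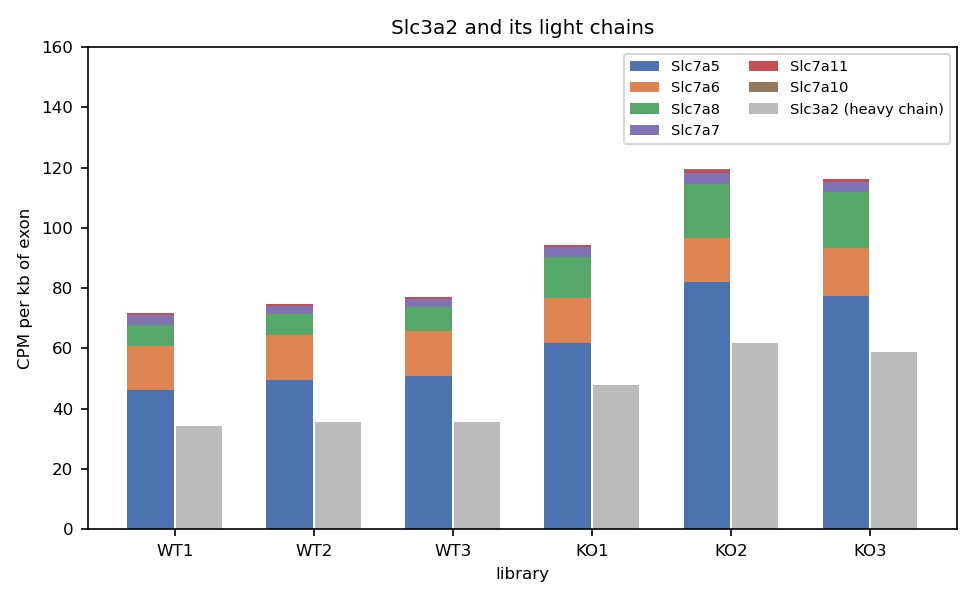
CPM per kb of exon in each library for the light chains that pair with Slc3a2 (stacked bars, coloured by gene) and for the heavy chain Slc3a2 (grey bars). The light chain sum is 71.8 to 77.2 in WT and 94.3 to 120 in KO libraries, the grey bars of Slc3a2 are also higher in KO, the band of Slc7a8 is wider in all 3 KO libraries, and the band of Slc7a6 has about the same height in all libraries.

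The cationic amino acid transporter branch of SLC7 works without a heavy chain, and 4 of its 5 members rose, beside 24.8% of all genes called higher. *Slc7a1* (CAT1, which carries arginine and lysine into most cells, chr5:148327410-148399904) had 34.1, 37.1 and 35.4 CPM in WT and 49.2, 58.5 and 55.9 CPM in KO, a fold of 1.54 (LFC 0.62, SE 0.07, adjusted p = 8.49e-05). *Slc7a2* (CAT2, an arginine carrier also used by macrophages) had 9.81, 11.3 and 17.6 CPM in WT and 20.4, 27.5 and 21.4 CPM in KO (fold 1.79, LFC 0.84, SE 0.19, adjusted p = 0.00397). WT3 stood above the other WT libraries of *Slc7a2* but below every KO library. *Slc7a4*, a relative with no settled substrate, had 30.8, 28.5 and 28.2 CPM in WT and 43.1, 52.4 and 53.9 CPM in KO (fold 1.71, LFC 0.77, SE 0.09, adjusted p = 6.62e-05). *P2rx6* on the opposite strand covers 13.3% of the *Slc7a4* exon length, and *Gm26584* 6.95% of that of *Slc7a2*. *Slc7a14*, a lysosomal member, rose with an LFC of 0.43 (adjusted p = 0.0154), a call that DESeq2 did not make with or without the littermate pair as a block (adjusted p = 0.202 and 0.0826). *Slc7a3* was not called (LFC -0.43, adjusted p = 0.405), nor was *Slc7a6os* (LFC -0.05, adjusted p = 0.662).

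The SLC43 members *Slc43a1* (LAT3) and *Slc43a2* (LAT4) carry branched-chain and other large neutral amino acids. *Slc43a2* (chr11:75529915-75577575) was the most abundant of them per kb of exon in WT (4.67 ± 0.126 CPM per kb; SD, n = 3), with 47.1, 45.6 and 48.1 CPM in WT and 61.2, 60.6 and 65.0 in KO. Its fold of 1.33 was small but regular (LFC 0.41, SE 0.05, adjusted p = 0.000189), and 9.18% of its exon length overlaps *Gm45606* on the opposite strand. *Slc43a1* had 8, 4 and 5 counts in WT and 16, 17 and 17 counts in KO, or 0.422, 0.254 and 0.282 CPM against 0.825, 0.940 and 0.900 (fold 2.71, LFC 1.44, SE 0.35, adjusted p = 0.00602), and it entered the test only through its KO libraries. *Slc43a3*, which carries purine nucleobases and not amino acids, had 1.27, 1.40 and 1.18 CPM in WT and 2.06, 2.38 and 2.70 in KO (fold 1.85, LFC 0.89, SE 0.22, adjusted p = 0.00645). With the littermate pair as a block in DESeq2 the calls of *Slc43a1* and *Slc43a3* were lost (adjusted p = 0.157 and 0.139), and *Slc43a1* was not called by DESeq2 without the block either (adjusted p = 0.0640). The 2 genes are neighbours on chromosome 2, at chr2:84838855-84863586 and chr2:84936545-84958509, 73.0 kb apart.

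In SLC38, the sodium-coupled carriers of glutamine and other small neutral amino acids, 3 of 8 tested members rose and none was called lower. The shares over all genes tested were 24.8% higher and 20.6% lower, and the median LFC of the tested SLC38 members was -0.02. *Slc38a1* (SNAT1) had the largest fold, from 4.53, 5.98 and 3.61 CPM in WT to 10.1, 13.4 and 16.0 CPM in KO (fold 2.81, LFC 1.49, SE 0.20, adjusted p = 0.000189). *Slc38a2* (SNAT2, the member best known to be induced by amino acid lack) had 36.0, 31.9 and 33.6 CPM in WT and 44.8, 58.4 and 51.0 CPM in KO, a fold of 1.52 (LFC 0.60, SE 0.09, adjusted p = 0.000413). These genes lie side by side on chromosome 15 (chr15:96571418-96643438 and chr15:96687392-96699728), with 44.0 kb between them, and the next member, *Slc38a4*, 295 kb further on, was not called (LFC -0.15, adjusted p = 0.763). The lysosomal carrier *Slc38a7* had 3.74, 3.12 and 3.50 CPM in WT and 5.26, 7.14 and 5.66 in KO (fold 1.73, LFC 0.79, SE 0.16, adjusted p = 0.00252). The most abundant member per kb, *Slc38a10*, had overlapping values, 104, 107 and 109 CPM in WT and 111, 109 and 101 in KO (LFC 0.01, SE 0.05, adjusted p = 0.933). *Slc38a9*, the lysosomal arginine sensor that acts on mTORC1, had an LFC of -0.14 and an adjusted p of 0.0519 (0.0425 without WT2), while *Slc38a5* (LFC -0.19, adjusted p = 0.217) and *Slc38a6* (LFC -0.06, adjusted p = 0.723) were further from the threshold.

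The proton-coupled family SLC36 held a rise and a fall next to each other. *Slc36a1* (PAT1, a lysosomal and plasma membrane carrier of small neutral amino acids, chr11:55204322-55236330) had 13.3, 14.4 and 14.5 CPM in WT and 19.3, 22.7 and 22.0 CPM in KO (fold 1.52, LFC 0.60, SE 0.09, adjusted p = 0.000377). *Slc36a3* (chr11:55124815-55151722), separated from *Slc36a1* by *Slc36a2*, which had at most 8 counts in any library, had 45.5, 53.9 and 52.7 CPM in WT and 39.2, 43.8 and 42.4 CPM in KO. It was the only member called lower (LFC -0.28, SE 0.07, adjusted p = 0.0108), and with library size alone as the scaling its LFC of -0.14 was not called. *Slc36a4* did not pass the threshold (LFC 0.01, adjusted p = 0.950).

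Of the SLC1 family, which exchanges glutamate or neutral amino acids, 1 of 5 tested members was called, beside 24.8% of all genes called higher. *Slc1a4* (ASCT1, an exchanger of serine, alanine and cysteine) had 2.21, 2.23 and 2.48 CPM in WT and 2.89, 4.26 and 4.61 CPM in KO (fold 1.69, LFC 0.76, SE 0.21, adjusted p = 0.0117; 0.111 with the littermate pair as a block in DESeq2 and 0.0550 without KO3). The glutamine exchanger *Slc1a5* (ASCT2) had 12.6, 12.9 and 14.0 CPM in WT and 12.1, 16.9 and 21.4 CPM in KO. KO1 lay below every WT library while KO2 and KO3 lay above them, and the LFC of 0.35 (SE 0.17) had an adjusted p of 0.109. *Slc1a5* was called with the littermate pair as a block in edgeR (adjusted p = 0.0322) and, with an LFC of 0.55, without KO1 (adjusted p = 0.00195), but under none of the other 11 alternatives. Its adjusted p was 0.229 with the block in DESeq2, and without KO3 its LFC was 0.14 (adjusted p = 0.462). The glutamate carrier *Slc1a2* had 35.6, 33.0 and 31.9 CPM in WT and 30.6, 30.6 and 27.4 in KO (LFC -0.18, SE 0.07), with an adjusted p of 0.0628, or 0.0488 when edgeR took the littermate pair as a block. The remaining tested members, the glutamate carriers *Slc1a3* (LFC 0.30, adjusted p = 0.109, or 0.0136 without KO1) and *Slc1a7* (LFC -0.19, adjusted p = 0.532), were not called.

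In the SLC6 family 3 of 11 tested members rose, a share close to the 24.8% of all genes tested, and the family's median LFC was -0.05. The largest folds of the whole group were those of *Slc6a8* and *Slc6a4*, whose main substrates are not amino acids of proteins. *Slc6a8*, the creatine transporter (chrX:73673133-73682502), had 4.11, 4.01 and 4.79 CPM in WT and 12.0, 16.5 and 14.9 CPM in KO. Its lowest KO library had more than double the level of its highest WT library, with a fold of 3.35 (LFC 1.75, SE 0.14, adjusted p = 1.00e-05). *Slc6a4*, the serotonin transporter (chr11:76998597-77032343), had 1.85, 1.14 and 1.07 CPM in WT and 4.18, 3.87 and 4.02 CPM in KO (fold 2.94, LFC 1.55, SE 0.22, adjusted p = 0.000290). *Slc6a14*, a broad carrier of neutral and cationic amino acids, had an LFC of 0.41 (adjusted p = 0.0226), which was lost in DESeq2 with and without the littermate pair as a block (adjusted p = 0.205 and 0.0967). *Slc6a6* had 123, 122 and 127 CPM in WT and 127, 113 and 120 in KO, overlapping values with an LFC of -0.05 (SE 0.05, adjusted p = 0.469). The other SLC6 members tested had LFCs from -0.56 (*Slc6a12*) to 0.40 (*Slc6a11*) and were not called.

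**Figure D3:**
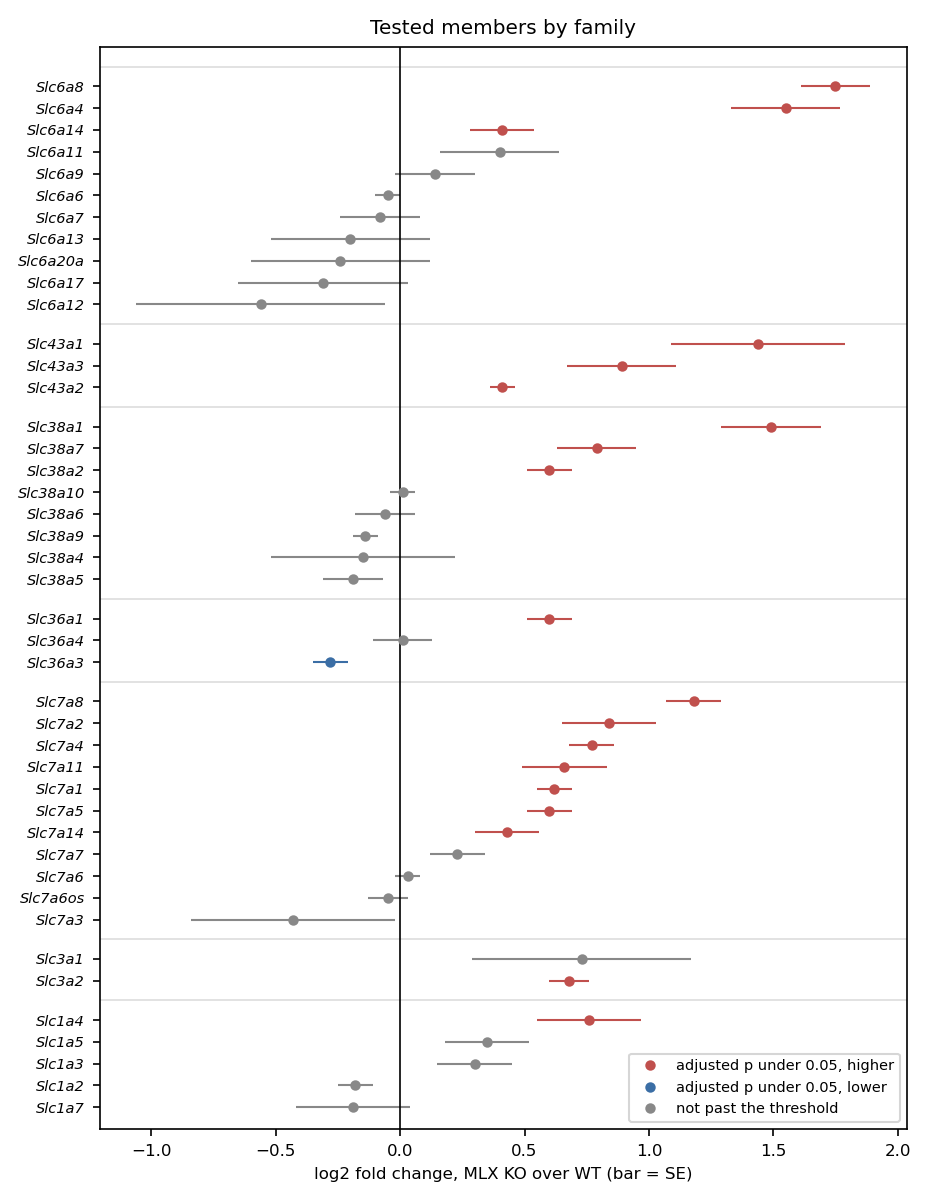
Log2 fold change, MLX KO over WT, with its standard error for the 43 tested members, grouped by family, with adjusted p under 0.05 in red for higher and blue for lower. All 3 Slc43a members (Slc43a1 tested through its KO libraries only) and 7 of 11 tested Slc7a members lie among the red points, while the Slc1a, Slc36a, Slc38a and Slc6a families mix red points with values near 0. Of all genes tested 24.8% were called higher.

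Over all members together, the summed level was 1115 ± 24.6 CPM in WT and 1436 ± 109 CPM in MLX KO (SD, n = 3; exact permutation test, two-sided, p = 0.1, the smallest possible). Every KO library, at 1312, 1517 and 1480 CPM, lay above the WT libraries at 1094, 1109 and 1142 CPM. The sum is weighted by abundant genes and does not describe each member. Mean levels in WT and KO were 181 and 273 CPM for *Slc7a5*, 124 and 198 for *Slc3a2*, and 36.6 and 83.3 for *Slc7a8*. Of the 43 tested members 23 were not called and 1 was lower, and the sum includes *Slc7a6os*.

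Promoters were searched for the DNA motifs of factors known to act on such genes. RefSeq promoter sequences, from 250 bases before to 50 bases after the start site, were matched for 44 of the 62 members and for 13 of the 19 called higher. *Slc6a8*, *Slc7a2*, *Slc7a4*, *Slc7a5*, *Slc38a1* and *Slc43a3* had no entry. A gene was counted once if any of its promoter sequences held a match, so that all shares of promoters given here are shares of genes. The E-box CACGTG, a palindrome bound by MLX with its partners and by other factors of the MYC network, was found for 8.09% of all 27025 genes with a promoter sequence and for 8 of the 44 members (18.2%). The E-box was on 4 of the 13 promoters of members called higher, on 2 of the 19 of members tested and not called, on 2 of the 11 of members not tested, and not on that of *Slc36a3*. Of the 4 called higher, *Slc7a14* lost its call under 5 alternatives and *Slc43a1* under 2, and *Slc43a1* was tested through its KO libraries only. The ATF4 composite element, TGATGNAA on either strand, was on 4.51% of all promoters and on those of *Slc7a11*, *Slc1a4* and *Slc7a7*. The cyclic AMP response element TGACGTCA was on 2.03% of all promoters and, of the members, on that of *Slc38a6*. The carbohydrate response element, a pair of E-box-like sites searched on both strands as CACGNG and CNCGNG with 5 bases of any kind between them, was on 0.426% of all promoters and on 0 of the 44. The 4 E-box promoters of members called higher, and that of *Slc7a11* with its pair of ATF4 elements, are shown up to at most the base before the start site, with the motif in capitals:
Slc36a1, chr11:55204259-55204339, plus strand: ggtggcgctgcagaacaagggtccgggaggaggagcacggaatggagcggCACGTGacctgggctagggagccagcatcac
Slc38a7, chr8:95853492-95853575, minus strand: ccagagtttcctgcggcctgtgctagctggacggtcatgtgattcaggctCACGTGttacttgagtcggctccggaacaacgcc
Slc43a1, chr2:84840209-84840314, plus strand: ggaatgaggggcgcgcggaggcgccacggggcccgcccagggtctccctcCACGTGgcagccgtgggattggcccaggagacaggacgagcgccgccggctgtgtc
Slc7a14, chr3:31310333-31310438, minus strand: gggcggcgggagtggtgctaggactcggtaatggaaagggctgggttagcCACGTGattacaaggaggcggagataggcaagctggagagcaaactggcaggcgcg
Slc7a11, chr3:50443614-50443729, minus strand: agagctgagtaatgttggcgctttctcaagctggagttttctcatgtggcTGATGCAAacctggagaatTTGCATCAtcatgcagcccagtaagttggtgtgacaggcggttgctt

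The E-box began 31 bases before the start site in *Slc36a1*, 34 in *Slc38a7*, 64 in *Slc43a1* and 69 in *Slc7a14*. *Slc36a1* held another E-box across its start site, and the ATF4 element of *Slc1a4* also spanned the start. In *Slc7a11* the elements began 66 and 47 bases before the start, on opposite strands. These are matches of letters in short windows, and binding to them was not analysed here.

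Related lists show how the transporters compare with other genes of amino acid handling. Of 20 tested amino acid and peptide carriers outside the 7 families, 8 were higher and 1 lower, with a median LFC of 0.41. For this and the following lists, the shares over all genes tested were 24.8% higher and 20.6% lower, with a median LFC of 0.03. Of the same 14640 genes, DESeq2 with the littermate pair as a block called 2186 higher and 2385 lower. With 1 library left out, 2952 to 3953 of these genes were higher and 2132 to 3401 lower. *Slc15a3*, a lysosomal carrier of histidine and dipeptides known from macrophages, had 4, 4 and 6 counts in the WT libraries and 20, 19 and 18 in those of MLX KO (LFC 1.89, SE 0.35, adjusted p = 0.00122), and it passed the filter on low counts only through its KO libraries. The mitochondrial glutamate carrier *Slc25a22* had an LFC of 1.17 (SE 0.21, adjusted p = 0.00122), and the mitochondrial carrier of basic amino acids *Slc25a29* had 2.32, 2.16 and 2.48 CPM in WT and 2.01, 8.19 and 4.45 in KO, with KO1 below WT (LFC 1.06, SE 0.40, adjusted p = 0.0469; 0.0869 with the littermate pair as a block in DESeq2). Its LFC was 0.48 without KO2 (adjusted p = 0.253), and it kept its call when KO1 was left out but lost it without any other single library. With that block in DESeq2 4 of these carriers were called higher.

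Enzymes of branched-chain amino acid breakdown, whose substrates enter through *Slc7a5*, *Slc7a8* and SLC43 carriers, had the highest median LFC of the 5 lists, 0.65, with 13 of 18 higher and 0 lower. *Dbt*, a subunit of the branched-chain ketoacid dehydrogenase, had 8.07, 7.82 and 8.35 CPM in WT and 15.5, 18.9 and 17.8 CPM in KO (LFC 1.10, SE 0.10, adjusted p = 2.23e-05). *Hsd17b10*, which acts late in isoleucine breakdown, had an LFC of 0.96 (adjusted p = 0.00189), and *Bckdk*, the kinase that inhibits the same dehydrogenase, an LFC of 0.85 (adjusted p = 0.000401).

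Among 15 enzymes of glutamine and glutamate, 8 were higher and 1 lower (median LFC 0.26), or 5 and 0 with the littermate pair as a block in DESeq2. Without WT3 or without KO3, 5 were higher. The gamma-glutamyltransferase family member *Ggt5* had an LFC of 1.45 (adjusted p = 0.00576). *Gpt2*, the mitochondrial alanine aminotransferase, had 46.0, 64.2 and 61.5 CPM in WT and 82.5, 149 and 137 CPM in KO (LFC 1.10, SE 0.19, adjusted p = 0.000810). *Gad2*, which makes GABA from glutamate, was the one that fell, with an LFC of -1.01 (adjusted p = 0.0117; 0.0883 with the littermate pair as a block in DESeq2).

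Of 18 tested genes of the ATF4 amino acid response, 10 were higher and 2 lower, with a median LFC of 0.30. *Atf4* itself rose with an LFC of 0.27 (adjusted p = 0.0152). The transcription factor *Cebpb* had 1.21, 0.636 and 0.282 CPM in WT and 1.44, 4.98 and 1.59 CPM in KO (LFC 1.87, SE 0.56, adjusted p = 0.0180), with KO2 far above the rest. Without KO2 its LFC was 1.07 and it was not called (adjusted p = 0.0883), nor was it without WT2 or WT3 (adjusted p = 0.0599 and 0.0623). *Cth*, which makes cysteine, had an LFC of 1.11 (adjusted p = 0.0191), and the mTORC1 inhibitor *Ddit4* had 12.2, 13.0 and 13.8 CPM in WT and 22.8, 25.8 and 23.5 in KO (LFC 0.89, SE 0.09, adjusted p = 2.79e-05). *Asns*, the asparagine synthetase that defines this response in many cells, was lower (LFC -0.14, adjusted p = 0.0324), as was *Ddit3* (LFC -0.18, adjusted p = 0.0327), but with the littermate pair as a block in DESeq2 neither was called (adjusted p = 0.0621 and 0.120). Neither was called with library size alone (LFC 0.0 and -0.04, adjusted p = 0.971 and 0.572), nor *Asns* with the block in edgeR (adjusted p = 0.0609). The list's counts depended on single libraries, with 5 of the same 18 genes higher without WT2, 5 without KO2 and 6 without KO3, and none lower without WT2, WT3 or KO2. With the littermate pair as a block in DESeq2, 4 of the 18 were higher and 0 lower, the calls of *Atf4* and *Cth* among those lost (adjusted p = 0.109 and 0.108). *Atf4* was also not called without WT3 or KO2, and *Cth* not without WT2, KO2 or KO3.

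Genes of amino acid sensing by mTORC1 had the lowest median LFC of the 5 lists, 0.09, with 7 of 28 higher and 2 lower, and the share called higher was that of all genes tested (24.8%). The Rag GTPase *Rragd* had 15.9, 12.2 and 12.5 CPM in WT and 21.0, 21.4 and 23.3 CPM in KO (LFC 0.69, SE 0.11, adjusted p = 0.000478). *Gatsl2*, the older symbol of *Castor2*, had an LFC of 0.57 (adjusted p = 0.00507), and the Ragulator subunit *Lamtor4* an LFC of 0.53 (adjusted p = 0.00706; 0.122 with the littermate pair as a block in DESeq2). *Mtor* was lower (LFC -0.24, adjusted p = 0.00378; LFC -0.11 and not called with library size alone). Under that block 4 were higher and 1 lower (2186 and 2385 of all 14640 genes tested). With library size alone 13 were higher and 0 lower (5343 and 1268 of all 14640).

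**Figure D4:**
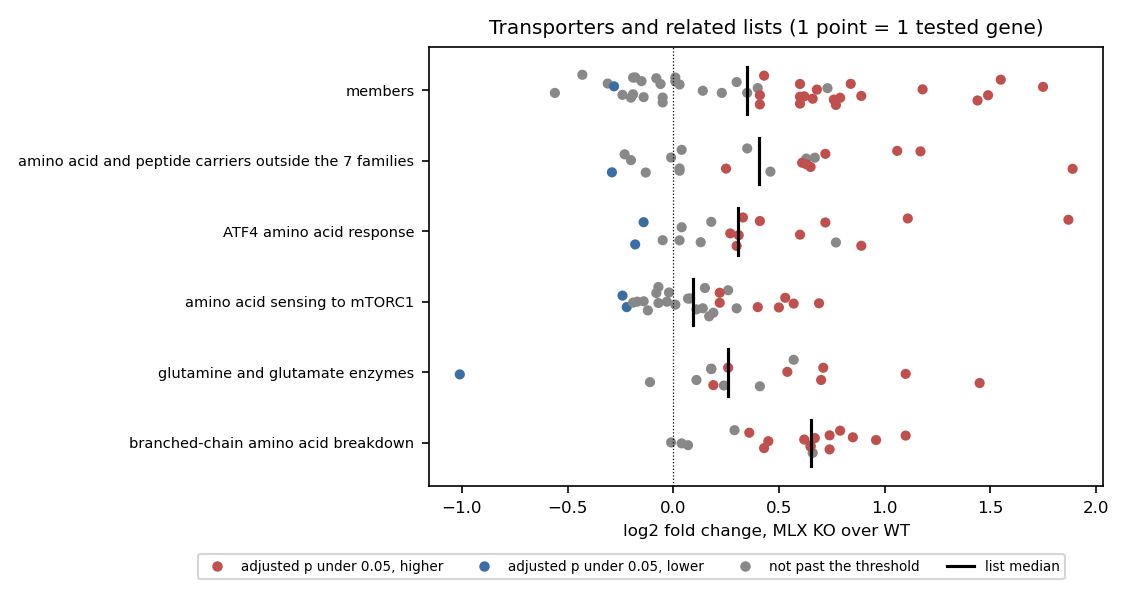
Log2 fold change, MLX KO over WT, of each tested transporter gene (top row, members) and of each tested gene in the 5 related lists, with calls in red (higher) or blue (lower) and black bars at the medians. The median is 0.35 for the members, lies between 0.09 (sensing to mTORC1) and 0.65 (branched-chain amino acid breakdown) for the lists, and is 0.03 for all genes tested (not drawn).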

How the data were processed

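The authors deposited 1 table of counts, whole numbers of reads per gene symbol in each of the 6 libraries, not normalized. Total RNA was sequenced in paired ends, and reads were aligned to mm10 with TopHat. The counting tool, annotation and strand setting are not given in the sources used here. Columns of the authors' own comparison (fold changes and p-values) were not used, and the ChIP-Seq samples were not analysed here. Of 17933 rows, 2 repeated another row.

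Members and lists were chosen with earlier results of these data known. The whole table was fitted with edgeR 4.0.16 in R 4.3.3 (filterByExpr at a minimum count of 10, TMM, quasi-likelihood test, genotype as the only term) and p-values were adjusted by Benjamini-Hochberg. Tests were two-sided. CPM per kb used exon lengths from GENCODE M21, with the exons of all annotated transcripts of a gene joined. Alternatives were DESeq2 1.42.0, other scalings and filters, each library left out, and the littermate pair as a block. The pairing comes from the study's littermates and the numbers in the sample titles. Correlations of the deviations from group means were 0.145, 0.0363 and 0.121 for the numbered pairs, and no other WT and KO library correlated above 0.0330. Libraries of 1 genotype differed beyond counting noise. Each library is from a separate male. Code was tested on simulated data.

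Values in every library are given for called members with an absolute LFC of at least 0.5, the 5 highest per kb in WT, both heavy chains, and *Slc7a5*, *Slc7a8*, *Slc7a11*, *Slc1a5* and *Slc38a2*. *Slc1a2*, *Slc6a6* and *Slc43a2* were added after their values were seen. In each related list the 3 called genes with the largest change are named; *Atf4*, *Asns*, *Ddit3* and *Mtor* were added after their values were seen.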

Additional observations from a re-analysis of the deposited data

How the results depend on the processing

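The number of members called higher (19) stayed within 1.5 times under all alternatives, from 14 with the littermate pair as a block in DESeq2 to 23 with library size alone, which raises the median LFC of all genes by 0.139. Of the 14640 genes tested, that block in DESeq2 called 2186 higher and 2385 lower, and library size alone 5343 and 1268. The number called lower (1) became 3 with DESeq2 size factors in edgeR, 0 with library size alone and 2 when edgeR took the littermate pair as a block, and it ranged from 1 to 2 as single libraries were left out: without WT2 *Slc36a3* (LFC -0.23) lost its call and *Slc38a9* gained one, and without KO1 *Slc1a2* gained one. Calls of 14 members were made under all 13 alternatives. Of the others, *Slc6a14* lost its call under 5 (DESeq2 with and without the block, and without WT1, WT2 or KO3), *Slc7a14* under 5 (the same with KO2 in place of WT2), *Slc1a4*, *Slc36a3* and *Slc43a1* under 2 and *Slc43a3* under 1, and *Slc43a1* was not tested under the filter of at least 1 CPM in 3 libraries. Apart from the calls given beside their genes, the block changed no other call of a named gene. For *Slc7a6* the LFC turned to -0.0047 in DESeq2, -0.00028 with its size factors, -0.0057 with the block in DESeq2 and -0.0096 without KO3 (up to 0.06 without KO2). For *Slc38a10* it turned to -0.024, -0.02 and -0.025 in these 3 fits, and lay between -0.018 and -0.0008 without WT1, KO1 or KO2 (up to 0.05 without KO3). With library size alone both were called higher. Depth limits what can be said of the 19 untested members, and of *Slc43a1*. The absence of a call does not show that levels are equal.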
